A study of Homo sapiens with 2 samples.

Results

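Genes of glycan and proteoglycan synthesis were compared between cisplatin-resistant SBC5 cells and parental SBC5 cells. They were taken by name, from families of glycosyltransferases, sulphotransferases and chain polymerases together with the syndecan and glypican core proteins, with antisense names left out. The names matched 130 of 19217 loci and 102 of 12494 gene names in the deposited table. All 102 names reached 1 FPKM in at least 1 library and were compared, beside 12405 genes in all. FPKM counts fragments relative to the length of the locus and the size of the library.

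SBC5 is an established small cell lung cancer line. The resistant derivative had been selected in stepwise rising cisplatin, at 1, 2, 4 and 20 µg/ml, and the parental cells are the line it came from. Both were grown in the same medium with fetal bovine serum. Cisplatin is a platinum drug that crosslinks DNA. Each state was measured in 1 stranded library of polyadenylated RNA, so no test was possible, every difference describes these 2 libraries, and the derivative is a single selected line. Selection for resistance and any other change acquired during the culture of the derivative cannot be told apart.

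Glycans are built stepwise in the endoplasmic reticulum and Golgi, where each transferase adds a particular sugar from an activated donor. N-glycans are assembled on a lipid, transferred to asparagine and branched later. Mucin-type O-glycans begin with N-acetylgalactosamine on serine or threonine. Glycosphingolipids grow on ceramide, and proteoglycans carry long sulphated chains, heparan or chondroitin sulphate, on core proteins that bind growth factors at the cell surface.

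Values summed to 1081047 FPKM in the resistant and 1019555 FPKM in the parental library, and the number of fragments behind a value is unknown. Of 8 neuroendocrine markers, SYP had 8.62 FPKM in resistant and 8.56 FPKM in parental cells, NCAM1 had 1.64 FPKM in resistant and 0.821 FPKM in parental cells, and no locus carried the names of the other 6, which were not analysed here. Of the markers of other small cell lung cancer subtypes, YAP1 had 84.7 FPKM in resistant and 76.6 FPKM in parental cells. REST had 39.1 FPKM in resistant and 31.8 FPKM in parental cells, and POU2F3 had no locus of its name. The epithelial marker CDH1 had 4.81 FPKM in resistant and 0.536 FPKM in parental cells, and KRT8 had 2.36 FPKM in resistant and 2.09 FPKM in parental cells. No locus carried the names of the epithelial markers EPCAM, KRT18 and KRT19. The mesenchymal markers VIM, ZEB1 and CDH2 had 242, 4.06 and 0.770 FPKM in resistant cells, against 389, 13.8 and 2.38 FPKM in parental cells. No leukocyte or endothelial marker of the lists had a locus of its name, and of the fibroblast markers COL1A1 alone did, at 3.85 FPKM in resistant and 2.34 FPKM in parental cells. The part of these differences in the results below was not tested.

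In resistant cells 4 of the 102 genes were higher by 2-fold or more and 3 were lower by as much. Fold changes are on the scale of FPKM plus 1, which understates the change of low genes. Across all 12405 genes compared, 3.28% were higher and 2.70% lower by that limit, and the shares among the 102 were 3.92% and 2.94%, near that background. The median log2 ratio of resistant over parental cells was -0.06 over the 102 and -0.04 over all genes compared. A log2 ratio between -0.5 and 0.5 was found for 83 of the 102 genes (81.4%), against 82.7% of all genes compared. The counts varied with the pseudocount. With 0.1 FPKM, 7 of the 102 genes were higher and 4 lower, where 4.95% and 3.85% of all genes were, and with 5 FPKM 2 were higher and 1 lower, where 1.14% and 1.10% of all genes were. With strand-assigned loci 3 were higher and 3 lower, where 2.83% and 2.50% of all genes were. After scaling to an equal sum 3 were higher and 3 lower, where 2.88% and 3.07% of all genes were, and at a 4-fold limit 1 was higher and 0 lower, where 0.613% and 0.484% of all genes were.

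**Figure D1:**
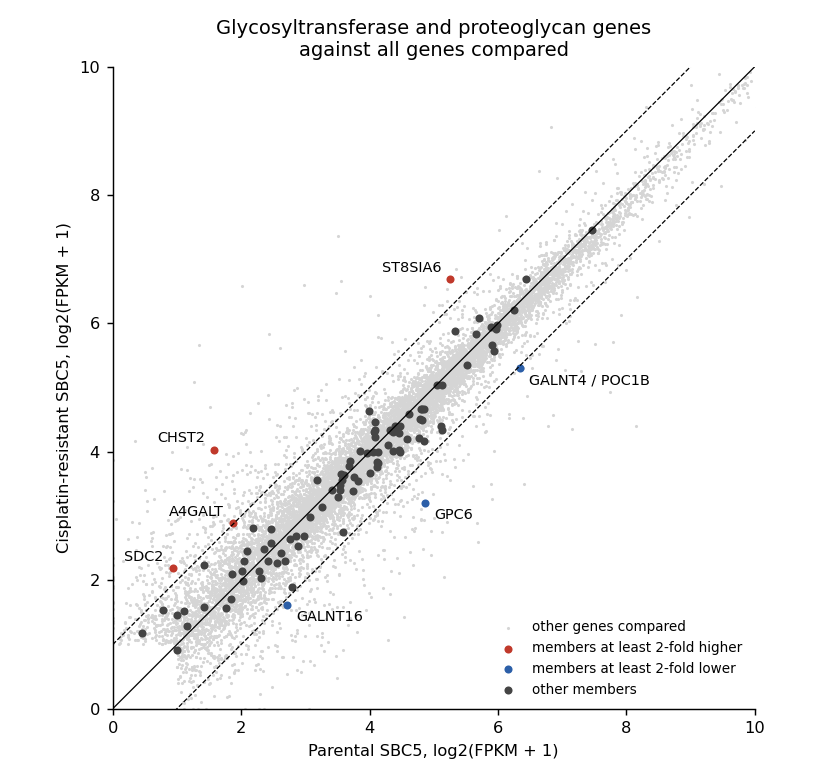
Levels of the 102 glycosyltransferase and proteoglycan genes in resistant cells (vertical axis) and parental cells (horizontal axis), both as log2 of FPKM plus 1, over all genes compared in grey; dashed lines mark a 2-fold difference, and genes above 10 on either axis lie outside the plot. The 4 red genes lie above the upper dashed line and the 3 blue genes below the lower one, with the other 95 between.

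Promoter sequence is shown for A4GALT and GPC6, each from 1 direction of change. Both have a single name, a locus on the annotated strand and a window free of annotated exons on that strand. CHST2, ST8SIA6 and SDC2 had larger log2 ratios than A4GALT. The CHST2 window overlaps an exon, ST8SIA6 has no locus on its own strand, and the chromosome of SDC2 was left out of the choice. Each window is the 250 bases before a RefSeq transcription start in GRCh38.p14, read along the strand of the gene. The A4GALT window is chr22:42721302-42721551 on the minus strand and the GPC6 window is chr13:93226557-93226806 on the plus strand. Capitals mark the letters GGGCGG, as in a GC box, and TATAAA, as in a TATA box, on either strand. The E-box letters CACCTG were also searched. Distance from the start was not considered, so a match is not evidence of a working element.
A4GALT: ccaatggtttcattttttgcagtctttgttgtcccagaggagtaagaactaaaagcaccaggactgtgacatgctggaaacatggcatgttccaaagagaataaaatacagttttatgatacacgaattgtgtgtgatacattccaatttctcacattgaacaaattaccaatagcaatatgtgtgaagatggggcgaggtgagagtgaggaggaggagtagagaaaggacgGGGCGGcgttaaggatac
GPC6: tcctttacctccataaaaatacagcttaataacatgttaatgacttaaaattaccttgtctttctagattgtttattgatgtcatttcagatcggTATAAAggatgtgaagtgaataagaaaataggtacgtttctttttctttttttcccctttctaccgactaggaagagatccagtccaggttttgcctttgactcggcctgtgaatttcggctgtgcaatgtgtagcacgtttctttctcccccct
The A4GALT window held 1 GGGCGG match and the GPC6 window held none, while 42.6% of 35116 windows of this length held at least 1. The GPC6 window held 1 TATAAA match, a sequence in 10.7% of windows, and neither held CACCTG, found in 17.5%. The windows printed had a GC content of 42.0% for A4GALT and 37.6% for GPC6, against a median of 58.0%, with 5 and 6 CpG dinucleotides against a median of 11. A4GALT has a further RefSeq start whose window, overlapping an annotated exon, held 7 GGGCGG matches and 33 CpG dinucleotides, with a GC content of 79.2%. These matches are descriptions of the letters and were not tested against the expression values.

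Among the core proteins, the glypican GPC6 was lower and the syndecan SDC2 was higher in resistant cells. GPC6, a heparan sulphate proteoglycan held in the membrane by a lipid anchor, had 8.20 FPKM in resistant cells and 28.2 FPKM in parental cells, a log2 ratio of -1.66. Its gene spans positions 93226842 to 94407401 of chromosome 13 (plus strand, GRCh38). At its level 95% of genes had log2 ratios between -1.05 and 0.78, so GPC6 lay outside that range. SDC2, a transmembrane heparan sulphate proteoglycan, had 3.55 FPKM in resistant cells and 0.911 FPKM in parental cells, a log2 ratio of 1.25. The parental value was below 1 FPKM, so SDC2 was compared only through the library where it was higher. Its gene spans positions 96493351 to 96611780 of chromosome 8 (plus strand), and at its lower level 95% of genes spanned -1.50 to 1.69, so SDC2 lay inside the range.

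The other core proteins had closer values. SDC1, the most abundant of the 8, had 59.3 FPKM in resistant and 61.5 FPKM in parental cells, and SDC3 had 19.9 FPKM in resistant and 20.2 FPKM in parental cells. GPC1 had 21.2 FPKM in resistant and 16.0 FPKM in parental cells, with a log2 ratio of 0.38. GPC2, GPC3 and GPC4 had 3.43 to 4.62 FPKM in resistant cells and 3.04 to 4.10 FPKM in parental cells. GPC6 was the fourth most abundant core protein gene in resistant cells and the second in parental cells. Its level was 0.387 times that of GPC1 in resistant cells and 1.76 times that of GPC1 in parental cells. The 8 genes together summed to 124 FPKM in resistant and 138 FPKM in parental cells, of which GPC6 made up 6.64% in resistant and 20.4% in parental cells. Of the 20 nearest genes compared around GPC6, 10 on each side, 2 passed 2-fold and the median log2 ratio of the 20 was -0.30. Around SDC2 1 passed 2-fold and the median was 0.02. By that limit 3.28% of all genes compared were higher and 2.70% lower.

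**Figure D2:**
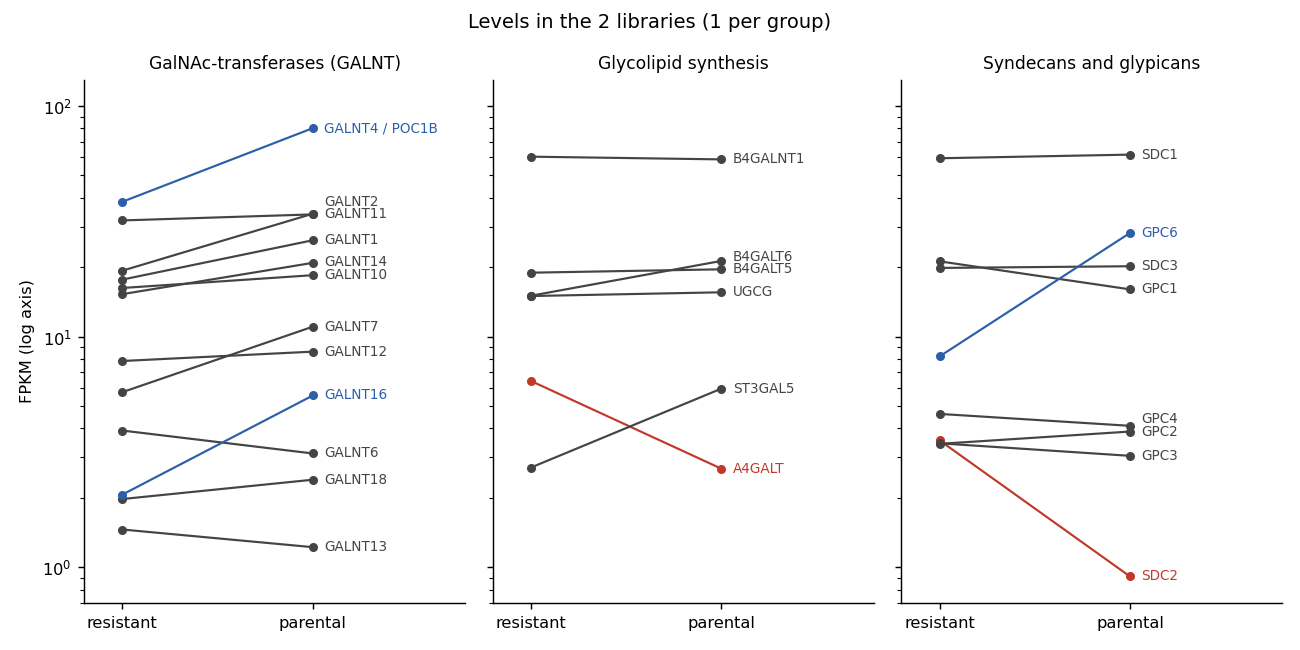
FPKM on a log axis in the resistant library (left point) and the parental library (right point) for 12 GALNT genes, 6 genes of glycolipid synthesis and 8 core proteins; each line is 1 gene, red at least 2-fold higher and blue at least 2-fold lower in resistant cells. The lines of GPC6 and GPC1 cross, as do those of ST3GAL5 and A4GALT, while SDC1, B4GALNT1 and GALNT11 are nearly flat.

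None of the 5 enzymes that start glycosaminoglycan chains passed 2-fold, and all 5 had log2 ratios below 0, as did 6903 of the 12405 genes compared. XYLT1, XYLT2, B4GALT7, B3GALT6 and B3GAT3 build the linker sugars on which heparan and chondroitin sulphate grow, and their log2 ratios ran from -0.33 for B3GALT6 to -0.01 for B3GAT3, with a median of -0.13. With division by the median ratio of all genes, 4 of the 5 remained below 0, as did 6155 of 12410 genes compared in that setting. B3GAT3, the most abundant, had 32.0 FPKM in resistant and 32.3 FPKM in parental cells. The phosphatase gene PXYLP1 and the xylose kinase gene FAM20B, which act on the same linker, had log2 ratios of -0.80 and -0.37.

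None of the 4 EXT and EXTL genes, grouped here under heparan sulphate polymerisation, passed 2-fold. EXT2, a subunit of the copolymerase, had 20.2 FPKM in both libraries, and its partner EXT1 had 15.2 FPKM in resistant and 13.4 FPKM in parental cells. EXTL3, which begins the heparan chain, had 24.4 FPKM in resistant and 27.7 FPKM in parental cells, and EXTL2 had 17.4 FPKM in resistant and 22.9 FPKM in parental cells. Of the modifying enzymes, the sulphotransferase gene HS6ST2 had 23.8 FPKM in resistant and 14.8 FPKM in parental cells, a log2 ratio of 0.65, close to but inside the range of -0.84 to 0.70 for its level. HS6ST1, of the same activity, had 14.8 FPKM in resistant and 14.5 FPKM in parental cells. HS2ST1, the uronate sulphotransferase, had 21.7 FPKM in resistant and 26.6 FPKM in parental cells (log2 ratio -0.28), and the deacetylase and sulphotransferase genes NDST1 and NDST2 had ratios of 0.01 and -0.00. HS6ST2 neighbours GPC4 and GPC3 on chromosome X, and those had log2 ratios of 0.14 each.

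In the chondroitin and dermatan group 6 of 7 genes lay below 0, with a median log2 ratio of -0.21 and none past 2-fold. Scaling the libraries to the same total (an equal sum) or by the median ratio left 6 of 7 below 0, and summing the loci of each name left 5 of 7, with CHST3 at 0.09. Of all genes compared, 6903 of 12405 lay below 0. The counts were 8193 of 12390 with an equal sum, 6155 of 12410 with the median ratio and 6749 of 12406 with summed loci. On the pathway list 5 further genes of this group were compared, 2 above 0 and 3 below. The chondroitin polymerising factor genes CHPF and CHPF2 had log2 ratios of 0.28 and 0.19. CSGALNACT2, DSE and UST had -0.06, -0.43 and -0.46. CHSY1, a chondroitin synthase and the most abundant of the 7 genes, had 13.4 FPKM in resistant and 16.3 FPKM in parental cells. The sulphotransferases CHST3, CHST7, CHST11, CHST13 and CHST15 had log2 ratios from -0.36 for CHST7 to -0.08 for CHST3, while CHST12 had 0.10. The FPKM ratio of CHST7 equalled 3 to 4 reads, or a multiple of it, once the relative worth of 1 read, 0.996, was taken out.

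CHST2 had the largest difference of the 102 genes. This Golgi enzyme adds sulphate to N-acetylglucosamine in the capping sugars recognised by L-selectin. It had 15.4 FPKM in resistant cells and 1.99 FPKM in parental cells, a log2 ratio of 2.46 and rank 34 from the top among the 12405 genes compared. Its gene spans positions 143119331 to 143124014 of chromosome 3 (plus strand), and 95% of genes of like level lay between -1.18 and 1.38. Of its 20 nearest genes compared, 2 passed 2-fold, where 3.28% of all genes compared were higher and 2.70% lower by that limit. The median log2 ratio of the 20 was -0.05. CHST6, which acts on the same sugar in keratan sulphate, had 5.43 FPKM in resistant and 6.26 FPKM in parental cells, so that CHST2 was at 2.84 times its level in resistant and 0.317 times its level in parental cells. CHST10, which sulphates the HNK-1 epitope, had 12.6 FPKM in resistant and 16.3 FPKM in parental cells. CHST8 had 1.75 FPKM in resistant and 1.01 FPKM in parental cells, near the filter of 1 FPKM.

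In glycolipid synthesis the gene past 2-fold acts on lactosylceramide, where the pathway branches. UGCG, which makes glucosylceramide in the first step, had 14.99 FPKM in resistant and 15.57 FPKM in parental cells. The lactosylceramide synthases B4GALT5 and B4GALT6 had 18.9 and 15.04 FPKM in resistant cells, against 19.6 and 21.3 FPKM in parental cells. A4GALT, which makes globotriaosylceramide, the Pk antigen and receptor of Shiga toxin, had 6.42 FPKM in resistant cells and 2.67 FPKM in parental cells. Its log2 ratio of 1.01 lay just past the limit of 1, within the range of -1.39 to 1.52 for its level. ST3GAL5, which makes the ganglioside GM3 from the same substrate, had 2.71 FPKM in resistant cells and 5.95 FPKM in parental cells, a log2 ratio of -0.91, just inside the limit.

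The order of these branch enzymes differed between the libraries. A4GALT stood at 2.37 times the level of ST3GAL5 in resistant cells and at 0.449 times in parental cells, both in FPKM, which is scaled to length. The quotient was 5.28 times higher in resistant cells. It was formed on FPKM without the added 1, so it is larger than on the scale of the log2 ratios. Both genes had at most 6.42 FPKM in either library. The pair was picked with its values known, and no background of such quotients was formed. B4GALNT1, which extends gangliosides to GM2 and GD2, had 60.3 FPKM in resistant and 58.7 FPKM in parental cells (log2 ratio 0.04). A4GALT spans positions 42692112 to 42721298 of chromosome 22, and ST3GAL5 spans 85837120 to 85905199 of chromosome 2, both on the minus strand. Of the 20 nearest genes compared, 2 passed 2-fold around A4GALT and 0 around ST3GAL5. Of all genes compared, 3.28% were higher and 2.70% lower by that limit. The A4GALT call is a narrow one: its log2 ratio was 0.57 with a pseudocount of 5 FPKM and 0.94 after scaling to an equal sum.

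The GALNT family, whose enzymes add the first sugar of mucin-type O-glycans, had a median of -0.31, with 10 of 12 genes below 0, against 6903 of 12405 genes compared. The same 10 of 12 count was found with an equal sum and with the median ratio, which gave family medians of -0.38 and -0.27. With an equal sum 8193 of 12390 genes compared lay below 0, with a median of -0.12. With the median ratio 6155 of 12410 did, with a median of 0.00. The family median was the lowest of the role groups in the reported setting, but in that setting the order rests on the joined GALNT4 and POC1B locus. Without it the median was -0.19, above the -0.21 of both the chondroitin and the fucosyl group, and 9 of 11 lay below 0. The median without it stayed the lowest with a pseudocount of 0.1 FPKM (-0.27, next the chondroitin group at -0.24). The same held with a filter of 5 FPKM (-0.48, next the fucosyl group at -0.36), but not in the other alternatives. The 12 loci summed to 162 FPKM in resistant and 246 FPKM in parental cells, and the 11 without the joined locus to 123 FPKM in resistant and 165 FPKM in parental cells.

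Within the family, GALNT16 had 2.06 FPKM in resistant cells and 5.55 FPKM in parental cells, a log2 ratio of -1.10. Its gene spans positions 69259277 to 69357033 of chromosome 14 (plus strand), and its ratio lay within the range of -1.55 to 1.89 for its level. The GALNT4 locus is joined in the table to POC1B, a centriole gene whose reads cannot be separated from it, and had 38.4 FPKM in resistant and 80.2 FPKM in parental cells (-1.04). GALNT4 itself spans positions 89519408 to 89524806 of chromosome 12 (minus strand). Of the 20 genes compared nearest to it 5 passed 2-fold, where 3.28% of all genes compared were higher and 2.70% lower by that limit. The median log2 ratio of the 20 was -0.28, and the part of the neighbourhood in this result was not tested. GALNT7 had 5.74 FPKM in resistant and 11.04 FPKM in parental cells (-0.84), and GALNT2 had 19.3 FPKM in resistant and 34.1 FPKM in parental cells (-0.79). Both lay below the ranges for their levels, whose lower ends were -0.83 and -0.69, GALNT7 only narrowly. Of the 102 genes compared, 7 lay outside such a range. A range that holds 95% of genes leaves some outside by construction, so a place outside it is not a test of a gene.

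The broadly acting GALNT1 had 17.7 FPKM in resistant and 26.2 FPKM in parental cells (log2 ratio -0.54), and GALNT14 had 15.3 FPKM in resistant and 20.9 FPKM in parental cells (-0.43). GALNT11, which also modifies Notch receptors, had 31.9 FPKM in resistant and 33.9 FPKM in parental cells (-0.08). GALNT2 stood at 0.605 times the level of GALNT11 in resistant cells and at 1.01 times in parental cells. GALNT6 and GALNT13 were the members above 0, GALNT6 at 3.91 FPKM in resistant and 3.11 FPKM in parental cells and GALNT13 at 1.46 FPKM in resistant and 1.22 FPKM in parental cells. The following step had ratios above 0: C1GALT1, which adds galactose to the first sugar, had 11.5 FPKM in resistant and 9.73 FPKM in parental cells (0.22), and its chaperone C1GALT1C1 had 67.5 FPKM in resistant and 51.5 FPKM in parental cells (0.38). The branching enzymes GCNT1, GCNT2 and GCNT4 had log2 ratios of 0.36, 0.10 and 0.17, and GCNT2, the most abundant, had 11.6 FPKM in resistant and 10.7 FPKM in parental cells.

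**Figure D3:**
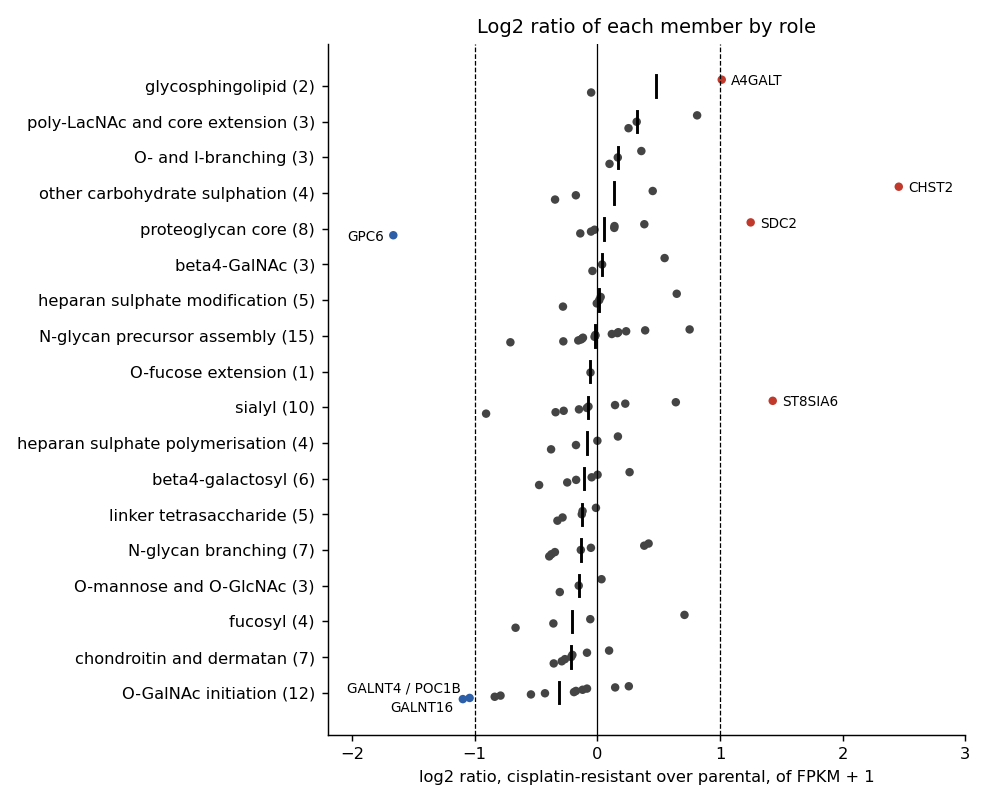
Log2 ratio of each of the 102 genes, resistant over parental, on FPKM plus 1, by the role of the gene; each point is 1 gene, the short vertical bar is the group's median, the number of genes stands in parentheses, and dashed lines mark a 2-fold difference. The GALNT group at the bottom has a median of -0.31, which is -0.19 without the joined GALNT4 and POC1B locus and then no longer the lowest, and CHST2 lies farthest to the right at 2.46.

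Sialyltransferases cap glycans with sialic acid, and 6 of the 10 compared lay below 0, against 6903 of 12405 genes compared. Their median log2 ratio was -0.08, and that of all genes was -0.04. ST8SIA6, which adds sialic acid to sialic acid, was represented by a locus of 102 FPKM in resistant and 37.3 FPKM in parental cells (1.43). The gene spans positions 17318383 to 17454330 of chromosome 10 (minus strand). The locus lay in a part of the table with no strand. Its ratio equalled 11 to 4 reads, or a multiple of it, within a relative tolerance of 2e-05 once the relative worth of 1 read, 0.996, was taken out. The 3 other loci of this name without a strand had 1.25 to 5.18 FPKM in resistant and 0.679 to 2.97 FPKM in parental cells. The sole strand-assigned locus lay on the strand opposite to the gene, with 1.11 FPKM in resistant and 0.335 FPKM in parental cells, a ratio equal to 10 to 3. The antisense gene ST8SIA6-AS1 had 8.94 FPKM in resistant and 7.52 FPKM in parental cells. All 5 loci were above 0 on the log2 scale, but none lay on the annotated strand of ST8SIA6, so the 2 transcripts cannot be told apart here.

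ST3GAL1, which caps O-glycans, had 6.06 FPKM in resistant and 3.53 FPKM in parental cells (log2 ratio 0.64). ST3GAL2 had 9.52 FPKM in resistant and 12.3 FPKM in parental cells (-0.34), ST3GAL3 had 3.11 FPKM in resistant and 3.98 FPKM in parental cells (-0.27), and ST3GAL4 had 17.7 FPKM in resistant and 15.9 FPKM in parental cells (0.14). The ST6GAL and ST6GALNAC genes had ratios from -0.15 for ST6GALNAC4 to 0.23 for ST6GAL1. Donor supply showed no 2-fold difference: CMAS, which activates sialic acid, had 21.7 FPKM in resistant and 18.9 FPKM in parental cells, and GNE, which starts its synthesis, had 7.45 FPKM in resistant and 9.94 FPKM in parental cells.

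The 15 ALG genes, which build the precursor on its lipid, had a median log2 ratio of -0.02, and none passed 2-fold. Their median was 0.03 with the median ratio and -0.10 with an equal sum, where that of all genes was 0.00 and -0.12. ALG8, a glucosyltransferase and the most abundant of the 102 genes, had 174 FPKM in resistant and 176 FPKM in parental cells. ALG10B had 20.1 FPKM in resistant and 33.5 FPKM in parental cells (-0.71), and its near-identical copy ALG10 had 3.85 FPKM in resistant and 4.88 FPKM in parental cells (-0.28), so reads may have been split between them. ALG1L and the pseudogene ALG1L9P resemble ALG1, and are uncertain for the same reason. The lower end for the level of ALG10B was -0.69. The catalytic transfer subunits STT3A and STT3B had 63.1 and 55.9 FPKM in resistant cells, against 58.0 and 60.1 FPKM in parental cells.

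Of the 7 branching genes, 5 lay below 0, against 6903 of 12405 genes compared. MGAT1, which opens the branching, had 72.7 FPKM in resistant and 75.4 FPKM in parental cells. MGAT5, which adds the branch that carries long chains, had 46.4 FPKM in resistant and 60.5 FPKM in parental cells (-0.37). MGAT2 had 11.7 FPKM in resistant and 15.1 FPKM in parental cells (-0.35) and the bisecting enzyme MGAT3 had 3.91 FPKM in resistant and 5.44 FPKM in parental cells (-0.39). MGAT4B had 67.1 FPKM in resistant and 51.2 FPKM in parental cells (0.38). The 3 B3GNT genes, which extend chains with N-acetylglucosamine, had ratios of 0.81 for B3GNT4, 0.32 for B3GNT9 and 0.25 for B3GNT2, the most abundant at 19.3 FPKM in resistant and 16.0 FPKM in parental cells. B4GALT2, the most abundant galactosyltransferase of its group, had 103 FPKM in resistant and 85.4 FPKM in parental cells (0.26).

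The core fucosyltransferase gene FUT8 had 15.1 FPKM in resistant and 19.7 FPKM in parental cells (-0.36), and FUT10 had 17.1 FPKM in resistant and 27.7 FPKM in parental cells (-0.67). FUT9, which makes the Lewis x epitope, had 1.25 FPKM in resistant and 0.378 FPKM in parental cells (0.71), a ratio equal to 10 to 3 reads or a multiple of it. B4GALNT4 had 57.7 FPKM in resistant and 39.2 FPKM in parental cells (0.55). The protein O-mannosyltransferase genes POMT1 and POMT2 had ratios of -0.31 and 0.03. B3GALTL, which adds glucose to O-linked fucose, had 19.7 FPKM in resistant and 20.6 FPKM in parental cells. OGT, which places O-GlcNAc on nuclear and cytosolic proteins, had 24.4 FPKM in resistant and 27.2 FPKM in parental cells on its own strand (-0.15). Its 3 loci without a strand went the other way, at 6.26 to 20.4 FPKM in resistant and 4.61 to 11.9 FPKM in parental cells, and the 4 loci summed gave 0.24.

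**Figure D4:**
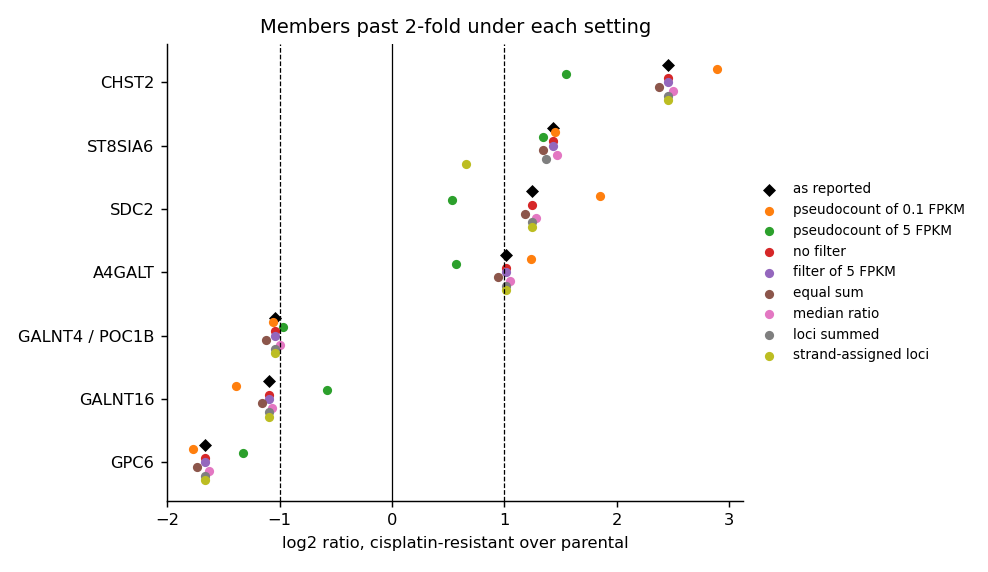
Log2 ratio, resistant over parental, of the 7 genes past 2-fold (rows) under the reported setting (black diamonds) and each alternative (coloured points); dashed lines mark a 2-fold difference. CHST2 and GPC6 stay past 2-fold in all settings shown, while A4GALT, GALNT16, SDC2 and the joined GALNT4 locus move inside it with a pseudocount of 5 FPKM. ST8SIA6 moves inside it with strand-assigned loci, where a locus on the strand opposite to the gene stands for it.

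Of 123 listed genes that supply donors, transport sugars, trim N-glycans, modify chains or carry them, 100 were compared, and the 23 whose name no locus carried were not analysed here. Of the 100, 1 was higher by at least 2-fold and 0 were lower by it, where 3.28% and 2.70% of all genes compared were. Their median log2 ratio was -0.08, or -0.16 with an equal sum and -0.05 with the median ratio. That of all genes was -0.04, or -0.12 with an equal sum and 0.00 with the median ratio. The gene past 2-fold was HYAL1, a hyaluronidase, with 6.24 FPKM in resistant and 1.95 FPKM in parental cells (1.30), inside the range of -1.39 to 1.52 for its level. HPSE, the heparanase that cuts heparan sulphate, had 2.61 FPKM in resistant and 0.929 FPKM in parental cells (0.91). Its parental value was below 1 FPKM, so HPSE was compared only through the library where it was higher. Its ratio lay inside the range of -1.50 to 1.69 for its level. BCAN, a chondroitin sulphate proteoglycan of the brain matrix, had 31.5 FPKM in resistant and 55.2 FPKM in parental cells (-0.79), below the lower end of -0.69 for its level. CSPG4 had 17.0 FPKM in resistant and 24.7 FPKM in parental cells (-0.51), inside its range of -0.91 to 0.81. GFPT1, which starts the synthesis of the N-acetylglucosamine donor, had 34.3 FPKM in resistant and 20.8 FPKM in parental cells (0.70), above the upper end of 0.58 for its level. Of these genes HYAL1 was named by rule, and the others were chosen after their values were seen.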

How the data were processed

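Polyadenylated RNA of 2 libraries, 1 per group, was analysed. The authors deposited 1 column of FPKM for each library, per the header of the table. The submitters' processing notes name TopHat2 and hg38 without a version or role, and the sources used here do not give the program or annotation that made the FPKM. Columns were matched by the sample descriptions, with 0 left unmatched.

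Unnamed loci (2919) and names turned into dates (23) were left out, and joined names were kept. Of the 102 names 17 had several loci, and each name was represented by its locus of highest mean FPKM. Ratios, resistant over parental, were formed on FPKM plus 1 and taken to log2. Genes with 1 FPKM in either library were compared, and a log2 ratio reaching 1 or -1 stood in place of a test. Of the 102 names, 4 reached 1 FPKM in only 1 library: SDC2, FUT9 and ALG1L9P in the resistant and ST6GALNAC3 in the parental library. The range for a level held the middle 95% of genes in 1 of 20 bins, so some genes fall outside by construction. Of the 102 names, 7 lay outside.

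Strand was inferred from the order of the loci, which runs through 3 parts on each chromosome. Of 12132 loci placed in a plus or minus part and found in the annotation, 98.7% lay on their annotated strand. Positions came from GENCODE release 29 for 101 names, on GRCh38, the same assembly as hg38. Promoter sequences came from the RefSeq table in GRCh38.p14.

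The counts behind FPKM are unknown. Of the 7591 loci with low values (over 0 but below 5 FPKM in each library), 52.9% had a quotient that matched, within 2e-05, a quotient of whole numbers no larger than 20 multiplied by 0.996, against 0.174% on average for 20 other factors. Of the 42 such low loci of these genes 15 did, and of their 130 loci at any level 21 did. Such a ratio can come from few reads or from a multiple of them.

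Genes were named by rule: every one past 2-fold (at most 20), A4GALT, the most abundant gene of each of 18 role groups, and listed pathway genes past 2-fold (at most 10). Further genes named here were picked with their values known. The genes and lists were chosen with earlier results of these data known. Alternatives were pseudocounts of 0.1 and 5, filters of 5 FPKM or none, an equal sum, the median ratio, summed loci, strand-assigned loci and a 4-fold limit. The tools were pandas 2.3.3, NumPy 2.4.6 and matplotlib 3.10.9 under Python 3.11.15.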

Additional observations from a re-analysis of the deposited data

How the results depend on the processing

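No paired analysis was possible because each group had 1 library and no test was made. With a pseudocount of 0.1 FPKM, 7 of the 102 genes were at least 2-fold higher and 4 lower, where 4.95% and 3.85% of all genes compared were. Those newly past 2-fold were B3GNT4, FUT9 and ALG1L9P higher and ST3GAL5 lower. FUT9 and ALG1L9P, like SDC2, were compared only through the resistant library, where they were higher. With a pseudocount of 5 FPKM, 2 were higher and 1 lower, against 1.14% and 1.10% of all genes: A4GALT (0.57), SDC2 (0.53), GALNT16 (-0.58) and the joined GALNT4 locus (-0.97) moved inside the limit. With strand-assigned loci 3 were higher and 3 lower, against 2.83% and 2.50% of all genes. ST8SIA6 was then represented by its locus on the strand opposite to the gene, at 0.66, which is not a value of its own strand. An equal sum left 3 higher, without A4GALT (0.94), and 3 lower, against 2.88% and 3.07% of all genes. A 4-fold limit left 1 higher, CHST2, and 0 lower, against 0.613% and 0.484%. SDC2 had no value under a filter of 5 FPKM. CHST2 (1.55 to 2.89) and GPC6 (-1.77 to -1.33) passed 2-fold in all 8 alternatives that give a ratio. The median of the 102 genes ranged from -0.14 with an equal sum to -0.02 with the median ratio. That of all genes was -0.12 and 0.00 in these settings. For pathway genes, the counts higher and lower were 2 and 1 with a pseudocount of 0.1 FPKM, 0 and 0 with 5 FPKM, and 0 and 0 at 4-fold. The number of fragments is unknown, so how precisely low values were measured is unknown, and differences in genes of a few FPKM have no replicate check.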

Other observations

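Several genes had more loci than the one that stood for them, and these did not always match it. The second strand-assigned locus of CHST8, a sulphotransferase of pituitary hormone glycans, had 2.00 FPKM in resistant and 0.501 FPKM in parental cells, a ratio equal to 4 to 1 reads or a multiple of it, where the first had 1.75 FPKM in resistant and 1.01 FPKM in parental cells. MGAT4B had 2 loci without a strand, with 7.25 and 19.6 FPKM in resistant and 2.76 and 13.1 FPKM in parental cells, in the same direction as its main locus. A locus of B4GALNT4 without a strand had 8.98 FPKM in resistant and 4.24 FPKM in parental cells, and its ratio equalled 17 to 8. FUT10 had 2 loci without a strand above 0 (log2 ratios 0.22 and 0.13), whereas its main locus had -0.67.

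Of 3 antisense names left out, EXTL3-AS1, without a strand, had 0.483 FPKM in resistant and 2.06 FPKM in parental cells (-1.04), beside -0.17 for EXTL3. ST3GAL4-AS1, also without a strand, had 5.88 FPKM in resistant and 4.67 FPKM in parental cells (0.28), beside 0.14 for ST3GAL4. ST8SIA6-AS1, on a strand-assigned locus, had 0.22. ALG6 had a locus without a strand with 0.294 FPKM in resistant and 1.77 FPKM in parental cells, a ratio equal to 1 to 6, while its strand-assigned locus had 5.27 FPKM in resistant and 5.80 FPKM in parental cells.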
